A study of Mus musculus with 27 samples.

Results

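Macrophages re-stimulated with LPS were compared with macrophages re-stimulated with Pam3CSK4, each after a first exposure to the same ligand, on 5 of the 27 arrays of the series. The members were chosen by their labels: the 2 arrays of cells re-stimulated with LPS that have deposited values and the 3 arrays of cells re-stimulated with Pam3CSK4. All cells were bone marrow-derived macrophages of female C57BL/6 mice aged 6 to 8 weeks, grown in L929-conditioned medium. In the LPS re-stimulated group the cells received 100 ng/ml of LPS for 24 h, were washed and rested for 1 h, and received the same dose of LPS again for 4 h. In the Pam3CSK4 re-stimulated group they received 100 ng/ml of Pam3CSK4 on the same schedule. There is no genetic change in either group, and both groups are re-stimulated cells, so their difference is between ligands in cells exposed before, not between naive and re-stimulated cells. The fit that gave the standard errors and adjusted p-values held 11 re-stimulated arrays. Besides these 5 it used cells given CpG DNA or Poly(I:C) both times on the same schedule. The study's methods describe the replicates at one place as different mice and at another as separately made marrow pools.

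LPS is the lipid-anchored sugar polymer of the Gram-negative outer membrane and is sensed by Toll-like receptor 4 (TLR4) with its co-receptors CD14 and MD-2. Pam3CSK4 is a synthetic triacylated lipopeptide sensed by TLR2 together with TLR1. Both receptors signal through the adapter MyD88 to NF-kB and MAP kinases, and TLR4 also signals from endosomes through the adapters TRAM and TRIF to the kinase TBK1 and the transcription factor IRF3, which switches on interferon beta. Secreted interferon beta acts back on the cells through its receptor and a transcription factor complex that binds the interferon-stimulated response element in the promoters of its target genes.

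Values are log2 levels on 1-colour arrays, on which 1 unit is a doubling of the normalized spot signal, and a level of 1 probe is not compared with that of another. All 10 macrophage markers checked, among them Emr1 (F4/80), Csf1r and Cd68, were well above background on all 5 arrays, and their summed log2 levels ranged from 153.9 to 155.7 with LPS and from 152.6 to 153.1 with Pam3CSK4. Of 5 T cell markers 4 were above background on none of the 5 arrays, as were 3 of 4 NK cell and 3 of 4 fibroblast markers. The summed levels of the 6 neutrophil markers were 58.9 and 61.3 with LPS and ranged from 33.4 to 61.1 with Pam3CSK4, where Pam3CSK4 replicate 3 was the low array. Ly6g, Ngp and Ltf were at 2.38, 2.96 and 3.33 on that array and at 8.20 or more on the other 4. Elane and Camp were at 11.08 and 10.45 on it, against 11.38 to 12.73 and 10.60 to 11.24 on the other arrays. Mpo was at 3.22 both on it and on LPS replicate 2. The part of other cells in the results was not tested, and fewer cells of a type cannot be told apart from less RNA per cell. Between 42.1% and 47.6% of probes were well above background on the 5 arrays. LPS replicate 1 shared a slide with Pam3CSK4 replicate 1, LPS replicate 2 shared one with Pam3CSK4 replicate 2, and Pam3CSK4 replicate 3 lay on another slide with no LPS array that has deposited values.

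Among the genes higher with LPS, interferon beta itself, the chemokines Cxcl10, Cxcl9 and Ccl8, and antiviral effectors such as Rsad2, Oasl1, Ifit2 and Cmpk2 were 4.10 to 5.03 log2 units higher with LPS. The low side was shorter and mixed, with the protease Mmp9, the transcription factor Spib, the lectin Cd209g, the cytokines Csf2 and Il12a, and the NF-kB co-regulator Nfkbiz 2.56 to 3.89 log2 units lower with LPS. In the limma fit of the 11 re-stimulated arrays, 372 of 24757 probes tested (1.5%) passed an adjusted p under 0.05 with at least a 1.5-fold difference, 306 of them higher with LPS and 66 lower. They carry 240 gene symbols, 204 higher and 36 lower, and 0 symbols had probes called both ways. Of the called probes, 157 of the higher and 15 of the lower differed by at least 4-fold. Over all genes tested, with 1 probe a gene, 1.34% were called higher (182) and 0.207% lower (28), and the median difference was -0.01. At these shares a short list may hold 0 calls without differing from all genes tested. Of the 182, 71 are in one of the 25 pathway lists, 33 of them in the list of the type I interferon response.

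The number of calls rests on few arrays. With the slide as a block in the same fit 442 probes were called (359 higher and 83 lower), and with the slide as a random block 681 (480 higher and 201 lower). Without LPS replicate 1 the count was 51 and without LPS replicate 2 it was 21, each leaving a single LPS array whose spread was taken from the other groups. It was 168 without Pam3CSK4 replicate 1, 183 without replicate 2 and 402 without replicate 3. The Poly(I:C) re-stimulated replicate 3, which enters only through the shared estimate of the spread, lowered the count most, since 1061 probes were called without it (672 higher and 389 lower). Of the 54 called genes that the rule for named genes picked, 44 were called with the slide as a block, 6 without LPS replicate 1, 22 and 26 without Pam3CSK4 replicates 1 and 2, and 1 (Tcstv3) without LPS replicate 2. Within slide 1 and within slide 2, all 372 called probes differed in the direction of the fit, which follows from groups that do not overlap, and 370 did so by at least 1.5-fold on both slides. Normexp background correction, an alternative for dim spots, gave a different split of 368 higher and 182 lower (66.9% higher against 82.3%).

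**Figure D1:**
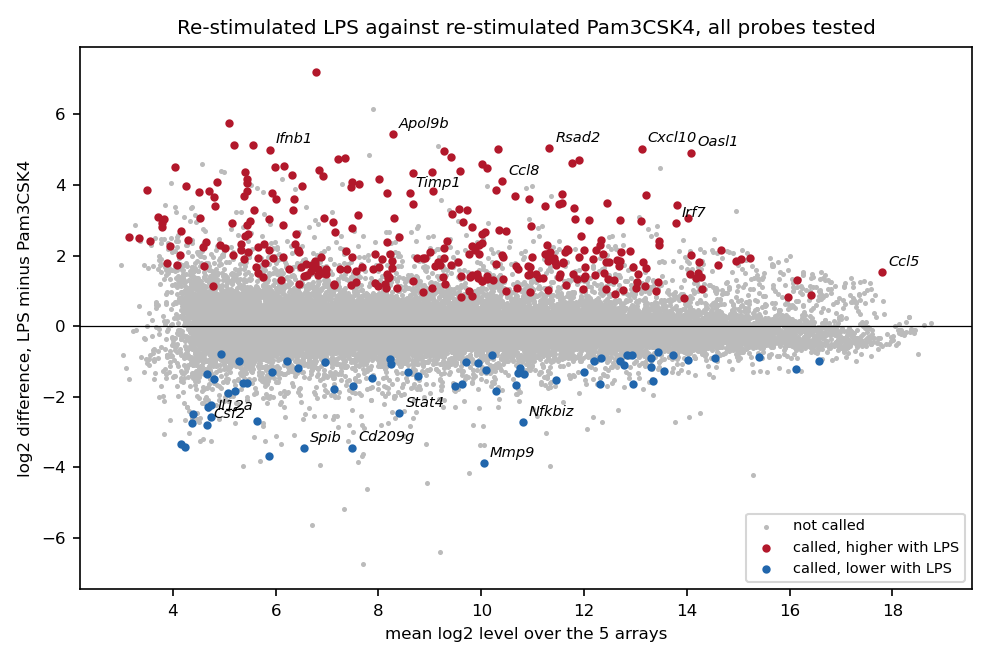
Difference in log2 level between re-stimulated LPS and re-stimulated Pam3CSK4 (y axis) against the mean log2 level over the 5 arrays (x axis) for all 24757 probes tested. The 306 probes called higher with LPS (red) outnumber the 66 called lower (blue), and several uncalled probes (grey) have differences as large as the called ones.

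**Figure D2:**
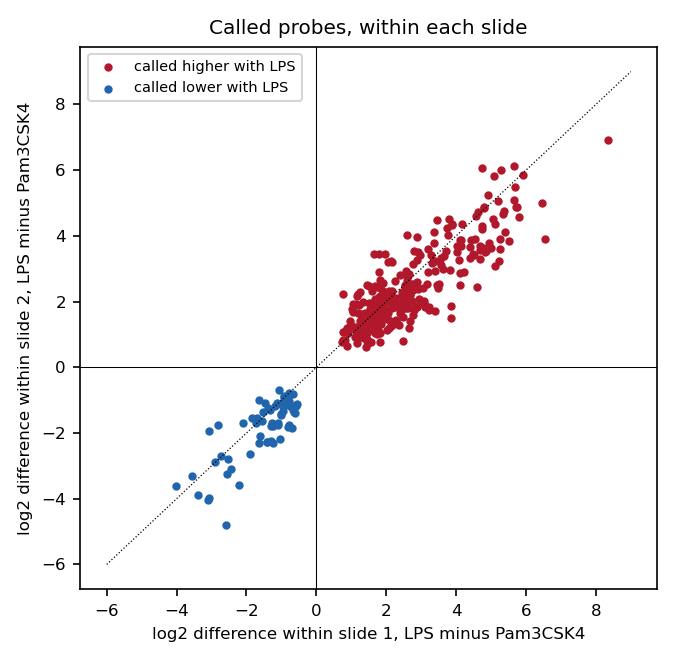
Log2 difference of each called probe within slide 1 (x axis) and within slide 2 (y axis), LPS minus Pam3CSK4, with the dotted line marking equal differences. All 306 probes called higher lie above 0 on both slides and all 66 called lower lie below 0 on both.

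Ifnb1, which encodes interferon beta, had log2 levels of 8.30 and 9.47 on the LPS arrays and of 3.55, 3.38 and 4.71 on the Pam3CSK4 arrays, where it was well above background on 1 array. The groups did not overlap, and the difference was 5.0 ± 0.66 (SE, adjusted p = 0.00698), with 4.74 within slide 1 and 6.08 within slide 2. Over the alternatives the difference of Ifnb1 ranged from 2.68 to 5.59. Its call was lost without LPS replicate 2 and when the LPS array without deposited values was added. Levels near background on the Pam3CSK4 arrays limit the size of this difference. Its probe lies at chr4:88168023-88168082 (mm9). Of the 11 genes tested in the list of interferons and interferon receptors, Ifnb1 was the only one called, and the list's median was 0.27. The receptor chains Ifnar1 (0.54, adjusted p = 0.212) and Ifnar2 (0.69, adjusted p = 0.107) did not pass. Ifna4 and Ifng had no probe that could be tested.

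In the type I interferon response list, of 58 genes 56 could be tested, and in all 56 both LPS arrays were higher than every Pam3CSK4 array, against 19.1% of all genes tested, and 33 passed the test. The list's median difference was 1.68, with a range from 0.55 to 5.03, and its median was 1.90 within slide 1 and 1.71 within slide 2. The number called fell to 4 without LPS replicate 1 and to 1 without LPS replicate 2, to 20 and 21 without Pam3CSK4 replicates 1 and 2, and to 13 in a fit of the 5 arrays alone. It was 37 with the slide as a block.

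Rsad2 (viperin, a radical SAM enzyme that makes an antiviral nucleotide) stood at 13.99 and 14.69 with LPS and at 8.31, 9.20 and 10.41 with Pam3CSK4. The lowest LPS array was above the highest Pam3CSK4 array by more than the spread within either group, and the difference was 5.03 ± 0.50 (adjusted p = 0.00254). Oasl1, an oligoadenylate synthetase-like protein, stood at 16.97 and 17.09 against 11.67, 11.08 and 13.59, a difference of 4.92 ± 0.61 (adjusted p = 0.00619). Ifit2, which binds foreign RNA, stood at 12.83 and 12.72 against 7.02, 8.16 and 9.34, a difference of 4.60 ± 0.54 (adjusted p = 0.00473). Cmpk2, a mitochondrial nucleotide kinase whose gene neighbours Rsad2, stood at 12.62 and 12.96 against 7.24, 8.20 and 9.49, a difference of 4.48 ± 0.50 (adjusted p = 0.00422). In each of these 4 genes Pam3CSK4 replicate 3 was the highest of its group and still below both LPS arrays.

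The promoters of these 4 genes are shown because their genes had the largest called differences in the list. They are the 250 bases before each RefSeq start site (GRCm38.p6), with the core of the interferon-stimulated response element, GAAA and GAAA with any 2 bases between them on either strand, in capitals where it occurs. Ifit2 has 2 start sites in the table.
Rsad2 (chr12:26456453-26456702, minus strand): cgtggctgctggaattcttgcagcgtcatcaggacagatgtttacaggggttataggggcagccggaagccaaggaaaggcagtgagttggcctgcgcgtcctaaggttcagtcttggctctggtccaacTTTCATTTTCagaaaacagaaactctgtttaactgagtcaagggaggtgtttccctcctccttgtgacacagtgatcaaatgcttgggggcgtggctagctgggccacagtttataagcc
Oasl1 (chr5:114922990-114923239, plus strand): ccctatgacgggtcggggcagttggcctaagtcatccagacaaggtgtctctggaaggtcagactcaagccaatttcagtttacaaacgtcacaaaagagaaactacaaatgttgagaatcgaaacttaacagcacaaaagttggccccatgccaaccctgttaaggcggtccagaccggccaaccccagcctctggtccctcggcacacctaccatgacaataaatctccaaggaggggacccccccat
Ifit2 (chr19:34550444-34550693, plus strand): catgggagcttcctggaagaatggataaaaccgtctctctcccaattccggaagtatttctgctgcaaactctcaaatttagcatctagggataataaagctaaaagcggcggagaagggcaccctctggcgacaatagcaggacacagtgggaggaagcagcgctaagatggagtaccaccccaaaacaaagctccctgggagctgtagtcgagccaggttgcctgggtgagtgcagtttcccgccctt
Ifit2 (chr19:34550838-34551087, plus strand): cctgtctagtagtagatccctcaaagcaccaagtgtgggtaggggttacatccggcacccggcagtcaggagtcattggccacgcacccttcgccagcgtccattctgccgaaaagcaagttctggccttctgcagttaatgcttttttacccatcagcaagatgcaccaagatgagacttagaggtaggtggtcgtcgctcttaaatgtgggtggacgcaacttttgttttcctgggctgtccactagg
Cmpk2 (chr12:26468965-26469214, plus strand): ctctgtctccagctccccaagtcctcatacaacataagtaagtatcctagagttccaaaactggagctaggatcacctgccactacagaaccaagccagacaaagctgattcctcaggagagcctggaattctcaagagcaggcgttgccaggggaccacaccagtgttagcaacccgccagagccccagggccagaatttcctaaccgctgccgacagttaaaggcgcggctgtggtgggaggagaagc
The core was found in Rsad2 alone of the 4, on the minus strand of the printed sequence, and no match in the other windows says only that these letters are not there.

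Of the 33 called members of the list 25 had a promoter in the table, and 12 of these (48%) held the core between 250 bases before and 50 bases after a start site. Of the 23 members tested that were not called 17 had a promoter, and 8 (47.1%) held it. Among all genes called higher the core was in 39 of 134 (29.1%), among those called lower in 1 of 19 (5.26%), and among all genes tested with a promoter in 408 of 10191 (4%). Over all 32851 promoters of the table the share was 3.44%. A match is a run of letters and not a bound site. The upstream matches of called members other than Rsad2, without those of Oas1g, whose matches overlap each other, are printed with up to 10 bases on either side and the core in capitals (GRCm38.p6, read along the gene's strand), because these genes share both the letters and the direction. A chromosome was left out when these matches were gathered, so the printed set may be incomplete.
Mnda (chr1:173913064-173913093, minus strand): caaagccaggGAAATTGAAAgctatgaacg
Ifit1 (chr19:34640775-34640804, plus strand): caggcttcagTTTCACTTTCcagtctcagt
Ifit1 (chr19:34640794-34640823, plus strand): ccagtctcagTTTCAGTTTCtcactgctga
Ifit3 (chr19:34583363-34583392, plus strand): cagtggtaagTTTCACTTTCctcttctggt
Ifit3 (chr19:34583397-34583426, plus strand): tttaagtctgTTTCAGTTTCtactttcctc
Phf11 (chr14:59297532-59297561, minus strand): cacatttagaGAAAAAGAAActagaaccta
Ddx60 (chr8:61928024-61928053, plus strand): gtgatgaatgGAAACCGAAActtaaagctt
Ddx60 (chr8:61928058-61928086, plus strand): gagcagaagaGAAACCGAAActatccttc
Oas3 (chr5:120777715-120777744, minus strand): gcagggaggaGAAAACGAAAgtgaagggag
Stat2 (chr10:128270266-128270295, plus strand): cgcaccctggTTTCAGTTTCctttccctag
Ifi203 (chr1:173942508-173942537, minus strand): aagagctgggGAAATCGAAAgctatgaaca
Ifit1 and Ifit3, which lie near each other on chromosome 19, each carried the core in 2 places, as did Ddx60.

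Other members of the list have roles upstream and downstream of interferon. The transcription factor Irf7, which amplifies interferon production, stood at 15.47 and 15.59 with LPS and at 12.59, 12.99 and 12.25 with Pam3CSK4, and differed by 2.92 ± 0.36 (adjusted p = 0.00561). Stat2 and Irf9, which carry the interferon signal to the nucleus, differed by 2.19 ± 0.28 (adjusted p = 0.00675) and 1.45 ± 0.26 (adjusted p = 0.027). Mx1, a dynamin-like GTPase that blocks viral nucleocapsids, differed by 3.48, and Isg20, an RNA exonuclease, by 3.48. The cytosolic RNA sensors Ddx58 (RIG-I) and Ifih1 (MDA5) differed by 1.69 and 1.48. Usp18, the protease that removes ISG15 from proteins and dampens the interferon receptor, differed by 1.83 ± 0.20 (adjusted p = 0.00405). Isg15 itself, the ubiquitin-like modifier, did not pass, at 1.94 ± 0.42 (adjusted p = 0.0576), although its arrays did not overlap: 16.94 and 16.62 against 14.62, 14.35 and 15.55. It passed with the slide as a block (2.18, adjusted p = 0.0124).

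Genes outside the fixed list with the largest called differences included Apol9b and Apol9a (apolipoprotein L family), at 5.43 and at least 34.9-fold, the second of which was above background on no Pam3CSK4 array. Here and below, "at least" sets the mean of the brighter group against a mean over the dim arrays of the higher of the probe's own level and the lowest level above background. It is not a bound on sampling error. Where the probe's own level is the higher on the dim arrays, it is the fitted difference itself, as for Csf2 (-2.79 ± 0.51). It holds on the deposited scale only, since normexp background correction gives smaller differences for dim probes, for Apol9a 2.54 (adjusted p = 0.112). Slfn1 and Slfn4, Schlafen family members linked to growth of immune cells, were at least 23.1-fold and 4.72 log2 units higher. Tcstv3 was at least 19.6-fold higher, with 7.14 and 6.37 against 2.10, 1.86 and 2.74. With normexp the log2 differences of Slfn1 and Tcstv3 were 2.56 and 1.44. Ms4a4c, a membrane protein of the CD20 family, stood at 15.09 and 14.36 against 10.10, 10.72 and 9.23, a difference of 4.71 ± 0.56 (adjusted p = 0.00483). The brightest tested probes of Apol9a and Ms4a4c were not called, and the values given are of other probes. For Pydc3, a pyrin-domain gene that RefSeq now names Ifi208, all 4 probes were called higher, with differences between 1.70 and 5.12.

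**Figure D3:**
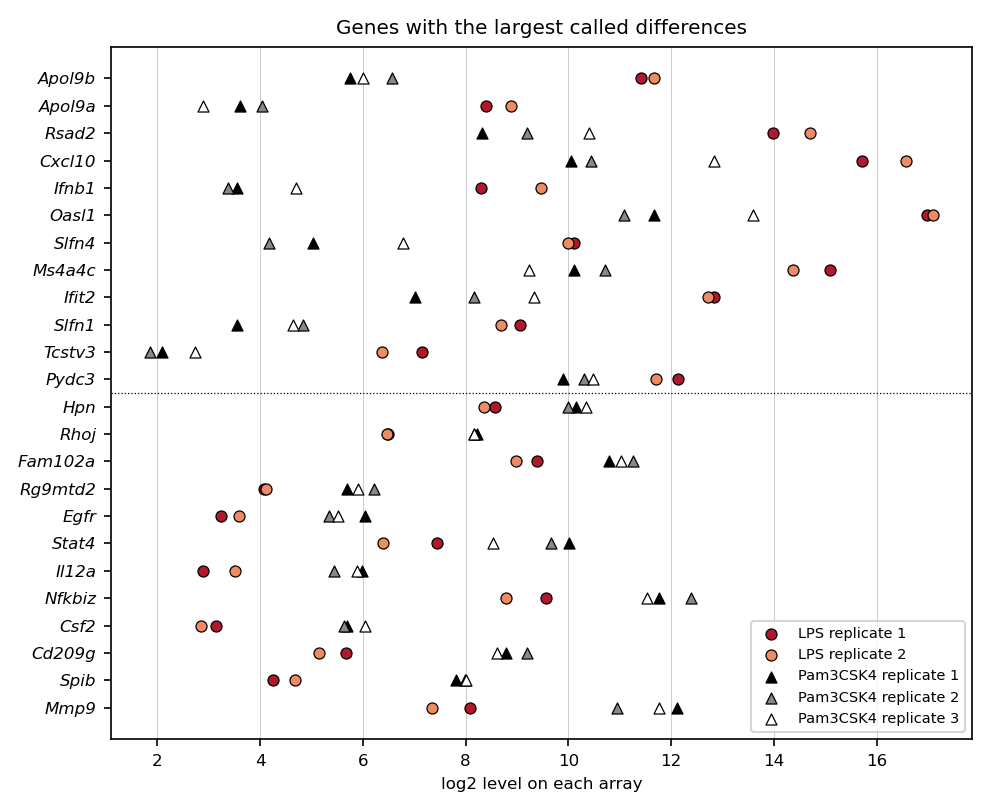
Log2 level on each of the 5 arrays (x axis) for the 12 genes with the largest called differences in each direction, with circles for LPS and triangles for Pam3CSK4. Above the dotted line all circles lie to the right of all triangles, as for Rsad2 at 13.99 and 14.69 against 8.31 to 10.41, and below it to the left, as for Mmp9 at 7.34 and 8.09 against 10.94 to 12.11.

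Interferon-inducible GTPases, which coat and disrupt vacuoles of intracellular microbes, showed the highest list median. All 17 genes tested of 19 were higher with LPS without overlap, against 19.1% of all genes tested. Of the 17, 12 passed, against 1.34% of all genes tested called higher. The median difference was 2.31 (2.86 within slide 1 and 2.69 within slide 2). Gbp4 stood at 8.86 and 8.90 against 3.91, 5.12 and 4.79 and differed by 4.27 ± 0.68 (adjusted p = 0.017), but it was well above background on only 1 Pam3CSK4 array, and with normexp it did not pass (2.49, adjusted p = 0.0589). Tgtp2 differed by 3.68 ± 0.51 (adjusted p = 0.0086), Gbp5 by 3.31 ± 0.67 (adjusted p = 0.0468) and Gbp6 by 3.17 ± 0.59 (adjusted p = 0.0328). The call of Gbp5 was lost in 14 of 26 alternatives. Gbp11 had the largest value of the list, 4.60 (adjusted p = 0.059), and did not pass. On Pam3CSK4 replicate 3, Gbp5 (9.86) and Tgtp2 (10.24) were higher than on the other Pam3CSK4 arrays (7.59 and 7.75, and 8.41 and 8.87). Without LPS replicate 1 or LPS replicate 2, 0 of these genes passed, with 5 passing without Pam3CSK4 replicate 1 or 2 and 4 in a fit of 8 groups. Guanylate-binding proteins and the Tgtp pair are close copies, and their probes may read more than 1 of them.

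Among chemokines the called genes were those that draw T cells and monocytes. Cxcl10 stood at 15.71 and 16.57 against 10.04, 10.44 and 12.83 and differed by 5.03 ± 0.76 (adjusted p = 0.0132). Cxcl9, which shares its receptor, differed by 4.16 ± 0.72 (adjusted p = 0.0235). Ccl8, a monocyte chemoattractant, stood at 12.72 and 13.00 against 9.07, 9.61 and 7.61 and differed by 4.10 ± 0.56 (adjusted p = 0.00805). Ccl12 differed by 2.96 ± 0.47 (adjusted p = 0.0168) and Ccl5 (RANTES) by 1.53 ± 0.29 (adjusted p = 0.0385), with Ccl5 at 18.72 on both LPS arrays, near the top of the scale, although no spot of it was marked as saturated. The call of Ccl5 was lost in 16 of 26 alternatives. Ccl2 was higher on every LPS array (15.44 and 15.30 against 13.72, 13.46 and 13.65) but its difference of 1.76 ± 0.52 did not pass (adjusted p = 0.138). It passed with the slide as a block (2.08, adjusted p = 0.041) and in a fit of the 5 arrays alone (adjusted p = 0.0316). The neutrophil chemokines Cxcl1, Cxcl2, Cxcl3 and Cxcl5 had differences of -1.03, -1.08, 0.26 and -1.01, none of which passed, and their groups overlapped. Of 12 CXC chemokines tested, 2 were called higher and the median was -0.43. Of 13 CC chemokines 3 were called higher and the median was 0.71. Of 9 chemokine receptors only Ccrl2, a chemerin-binding receptor, was called (2.34 ± 0.39, adjusted p = 0.0201).

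Of 27 cytokines tested 6 were called higher and 2 lower. Il18bp, the soluble inhibitor of interleukin-18, stood at 13.48 and 13.72 against 9.46, 10.22 and 10.73 and differed by 3.46 ± 0.54 (adjusted p = 0.0159). Il18 itself differed by 1.85, and Il15, which sustains NK and memory T cells, by 2.66. Il1rn, the interleukin-1 receptor antagonist, differed by 2.66 ± 0.50 (adjusted p = 0.0355, and 0.0696 with the slide as a block) and Il1f6 (interleukin-36 alpha) by 2.78 ± 0.36 (adjusted p = 0.00675), while Csf1, the macrophage growth factor, differed by 1.97.

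The called cytokines that were lower with LPS were Csf2 and Il12a. Csf2 (GM-CSF) stood at 3.14 and 2.85 with LPS and at 5.68, 5.63 and 6.04 with Pam3CSK4. It was above background on all Pam3CSK4 arrays and on no LPS array, so that it was at least 6.92-fold lower with LPS (adjusted p = 0.0293). Il12a, the p35 chain of interleukin-12, stood at 2.90 and 3.52 against 5.98, 5.44 and 5.89 and was at least 5.91-fold lower (adjusted p = 0.012). Csf2 lost its call when any 1 of the 5 arrays was left out (adjusted p from 0.0628 to 0.3) and with normexp background correction (-0.75, adjusted p = 0.138). Il12a lost its call without LPS replicate 1 (adjusted p = 0.111), LPS replicate 2 (0.0854) or Pam3CSK4 replicate 1 (0.0503), and with normexp its log2 difference was -0.71.

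The classical inflammatory cytokines did not pass the test. Tnf stood at 13.84 and 13.94 with LPS and at 13.97, 13.99 and 15.49 with Pam3CSK4, a difference of -0.59 ± 0.80 (adjusted p = 0.769). Both LPS arrays lay just below the lowest Pam3CSK4 array. Il1b stood at 15.57 and 16.13 against 16.14, 14.84 and 14.89 (0.56 ± 0.66, adjusted p = 0.728), and the groups overlapped. Il6 stood at 11.19 and 10.92 against 13.01, 11.89 and 13.20 (-1.64 ± 0.96, adjusted p = 0.425). Il10, an anti-inflammatory cytokine, stood at 6.82 and 5.93 against 9.07, 9.18 and 9.26, without overlap, and its difference of -2.80 ± 1.19 did not pass (adjusted p = 0.277). It passed in a fit of the 5 arrays alone (adjusted p = 0.0314) and without Poly(I:C) replicate 3 (adjusted p = 0.0116), on which Il10 was at 9.79 against 4.94 and 5.36 on the other Poly(I:C) re-stimulated arrays. Csf3 (-2.55, adjusted p = 0.251), Il1a (1.00, adjusted p = 0.502) and Il12b (0.41, adjusted p = 0.885) did not pass either, and Il23a had no probe that could be tested. With 2 arrays against 3, an uncalled difference does not show that the ligands act alike.

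The receptors and adapters of both ligands had small differences. Tlr4 differed by 0.79 ± 0.27 (adjusted p = 0.201), Tlr2 by -0.59 ± 0.27 (adjusted p = 0.309) and Cd14 by 0.10 ± 0.20 (adjusted p = 0.863). The adapters Myd88 (-0.22), Ticam1 (TRIF, 0.14) and Ticam2 (TRAM, -0.36), the inhibitory kinase Irak3 (-0.08) and Irf3 (-0.12) had adjusted p from 0.72 to 0.956. Of 22 genes in the list of adapters, kinases and TRAFs 0 were called in this limma fit, and the median was -0.08. Of 15 Toll-like receptors and co-receptors only Tlr3, the endosomal sensor of double-stranded RNA, was called. It stood at 5.92 and 5.34 against 3.55, 4.04 and 4.19, above background on no Pam3CSK4 array, and was at least 3.25-fold higher (adjusted p = 0.0272). The call of Tlr3 was lost in 11 of 25 alternatives, among them normexp (0.50, adjusted p = 0.122).

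Of 19 NF-kB subunits and inhibitors tested, 1 was called. The median difference was 0.17, with a range from -2.72 to 1.32. In 6 of the 19 both LPS arrays were higher without overlap and in 3 lower, against 19.1% and 18.5% of all genes tested. Nfkb1 was at 0.07 (adjusted p = 0.94), Bcl3 at -0.26 (adjusted p = 0.642) and Nfkbia at -0.37 (adjusted p = 0.432). The called gene was Nfkbiz, an inducible nuclear I-kappa-B protein that NF-kB needs at some of its secondary target genes. It stood at 9.56 and 8.80 with LPS and at 11.76, 12.39 and 11.53 with Pam3CSK4, a difference of -2.72 ± 0.56 (adjusted p = 0.0486). With the slide as a block it did not pass (adjusted p = 0.084), nor without either LPS array (adjusted p = 0.135 and 0.456). Of 24 IRF, STAT and SOCS genes 3 were called higher and Stat4, which carries the interleukin-12 signal, was called lower (7.45 and 6.40 against 10.01, 9.65 and 8.53, -2.47 ± 0.51, adjusted p = 0.0492, and 0.0769 with the slide as a block). Socs1, the feedback inhibitor of cytokine receptors, had a difference of 0.01 (adjusted p = 0.997). Of 26 AP-1 and MAP kinase phosphatase genes 0 were called in this fit.

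Mmp9 (gelatinase B, which digests collagen IV) had the largest called difference on the low side. It stood at 8.09 and 7.34 with LPS and at 12.11, 10.94 and 11.75 with Pam3CSK4, so that the groups were more than 2 log2 units apart, and the difference was -3.89 ± 0.61 (adjusted p = 0.0159). In contrast Timp1, which inhibits Mmp9 and other matrix metalloproteinases, was higher with LPS: 10.71 and 11.03 against 7.35, 7.23 and 6.70, a difference of 3.78 ± 0.49 (adjusted p = 0.00676). The serpins Serpina3g and Serpina3f, members of a cluster of close copies, were also higher, by 3.95 (adjusted p = 0.0362) and at least 4.62-fold (adjusted p = 0.0273). Serpina3g did not pass with the slide as a block (adjusted p = 0.0584), nor Serpina3f with normexp (0.78, adjusted p = 0.0775). The calls of Mmp9 and Timp1 were lost in 5 and 3 of 26 alternatives, for both genes among them those without either LPS array. Mmp9 also did not pass in the fit of 8 groups (adjusted p = 0.093) or without Pam3CSK4 replicate 1 (adjusted p = 0.0592).

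Spib, an ETS transcription factor best known from B cells and plasmacytoid dendritic cells, stood at 4.25 and 4.67 with LPS, above background on neither array, and at 7.81, 7.98 and 8.00 with Pam3CSK4. It was at least 11.1-fold lower (adjusted p = 0.00466). With normexp its log2 difference was -1.77, and its call was lost in the fit of 8 groups (adjusted p = 0.105) and without LPS replicate 1 (0.0563) or LPS replicate 2 (0.0608). Of the B cell markers Cd79a and Cd79b were above background on all 5 arrays, Pax5 on 2 Pam3CSK4 arrays and no LPS array, and Ms4a1 on none. The 3 that were tested had differences from -0.31 to -1.63 and did not pass, and the summed level of the list ranged from 22.3 to 23.4 with LPS and from 22.3 to 26.9 with Pam3CSK4. Their part in the value of Spib was not tested. Cd209g, a C-type lectin of the DC-SIGN family, stood at 5.68 and 5.16 against 8.78, 9.19 and 8.61 (-3.44 ± 0.71, adjusted p = 0.0493, and 0.07 with the slide as a block). Its relative Cd209f, singled out after its values were seen, stood at 5.85 and 4.87 against 11.53, 12.14 and 11.61. That difference of -6.40 ± 1.59 did not pass (adjusted p = 0.0912), and it passed in the fit of the 5 arrays alone (adjusted p = 0.0168). On the Poly(I:C) re-stimulated arrays Cd209f ranged from 3.24 to 9.33. Egfr, the epidermal growth factor receptor, was at least 4.68-fold lower and above background on no LPS array (adjusted p = 0.0437). Its call was lost in 15 of 25 alternatives, among them the slide as a block (adjusted p = 0.056) and normexp (-0.62, adjusted p = 0.0743). The value is of a dimmer probe, since the brightest tested probe of Egfr was not called.

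The remaining genes of the 12 lowest differed by less. Rhoj, a small GTPase, was tightly spaced at 6.48 and 6.47 against 8.21, 8.17 and 8.17 (-1.71 ± 0.22, adjusted p = 0.00649). Fam102a differed by -1.84 ± 0.30 (adjusted p = 0.018), Rg9mtd2 (Trmt10a in RefSeq, a tRNA methyltransferase) by -1.85 ± 0.23 (adjusted p = 0.00619) and Hpn, a membrane serine protease, by -1.69 ± 0.30 (adjusted p = 0.0249). Further called genes on the low side, named after their values were seen, were Nop2 (-1.0) and Gnl3 (-1.03) of the nucleolus, Srm (-1.20), which makes spermidine, Impdh2 (-1.29) and Ctps (-1.64), which make guanine and cytosine nucleotides, and the ribosomal protein genes Rpl14 (-1.02) and Rpl10a (-1.23). For Rg9mtd2, Impdh2 and Rpl14 the brightest tested probe was not called, and the values given are of other probes. Of 37 genes of DNA replication and mitosis 30 had a lower mean with LPS and 0 were called in this limma fit, with a median of -0.79 (-0.50 within slide 1 and -1.48 within slide 2). Of 25 cholesterol genes 16 had a lower mean and 0 were called, with a median of -0.54 (-0.22 and -1.06 within the slides), and 12 of them were lower without overlap between groups, against 18.5% of all genes tested.

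Smaller counts were found in the lists of macrophage function. Of 23 genes of MHC class I presentation 20 had a higher mean with LPS and 2 were called, the peptide transporter Tap1 (2.01 ± 0.40, adjusted p = 0.0416) and H2-T24 (1.36 ± 0.26, adjusted p = 0.0409), and the list's median was 0.92. Tap1 did not pass with the slide as a block (adjusted p = 0.0778). Nlrc5, the coactivator of class I genes, missed the threshold at 1.35 ± 0.29 (adjusted p = 0.0563). Of 12 class II genes 0 were called in this fit, and the median was 0.26. The checkpoint ligand Cd274 (PD-L1) and the inhibitory antibody receptor Fcgr2b were called among 25 surface molecules, at 1.24 ± 0.23 (adjusted p = 0.0326) and 1.34 ± 0.22 (adjusted p = 0.019). Of 21 inflammasome and cell death genes 3 were called higher: Nlrp1a by 3.44 ± 0.70 (adjusted p = 0.0466), Nod1 by 2.06 ± 0.25 (adjusted p = 0.00504) and Mefv (pyrin) by 1.15 ± 0.23 (adjusted p = 0.0454). With the slide as a block Nlrp1a did not pass (adjusted p = 0.076). The calls of Mefv, Cd274, H2-T24 and Fcgr2b were lost in 17, 14, 13 and 11 of 26 alternatives, and that of Nod1 in 4. Nos2, the inducible nitric oxide synthase, stood at 13.37 and 13.78 against 10.07, 9.01 and 10.55 and had a difference of 3.70 ± 0.81 that did not pass (adjusted p = 0.0591). Ido2, a tryptophan-degrading enzyme, was called in the same list (2.11 ± 0.43, adjusted p = 0.0472), and the prostaglandin E2 receptor Ptger2 in that of prostaglandins (1.96 ± 0.39, adjusted p = 0.0462), and neither Ido2 (adjusted p = 0.0513) nor Ptger2 (0.0613) passed with the slide as a block. The lists of NRF2 targets (median -0.05), glycolysis and HIF-1 (0.11), the respiratory chain (-0.10) and antimicrobial proteins (0.46) held 0 called genes. Over all genes tested 1.34% were called higher and 0.207% lower, so 0 calls in lists of this size are no result about them. In the respiratory chain 44 of 52 genes had a lower mean with LPS, but the median was 0.08 within slide 1 and -0.16 within slide 2. Without overlap between groups 9 of the 52 were lower, against 18.5% of all genes tested.

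**Figure D4:**
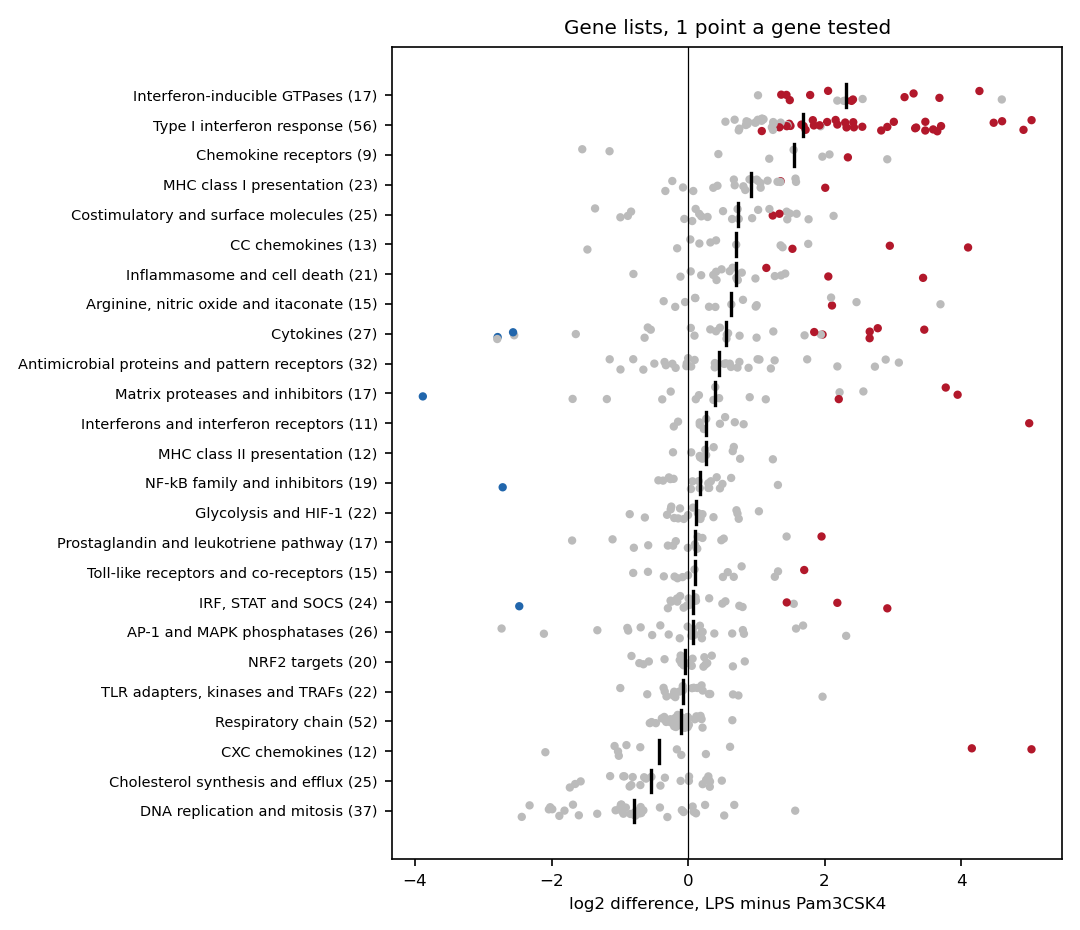
Log2 difference, LPS minus Pam3CSK4 (x axis), of each gene tested in the 25 pathway lists, with the number tested in brackets, called genes in red (higher) or blue (lower), and a black bar at the list's median. The bars of the interferon-inducible GTPases (2.31) and the type I interferon response (1.68) lie furthest to the right, and that of DNA replication and mitosis (-0.79) furthest to the left.

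The levels of the called genes in naive cells and in the other re-stimulated groups show where each group stood, and are given without a test because both groups' values chose the genes. Of the 182 genes called higher, with 1 probe a gene, 144 were at least 1.5-fold above the naive mean with LPS and 37 with Pam3CSK4, while 77 were at least 1.5-fold below it with Pam3CSK4 and 6 with LPS. With Poly(I:C), the TLR3 ligand, 163 were above the naive mean, and with CpG DNA, the TLR9 ligand, 100 were. Over all 13549 genes tested 2692 were above it with LPS, 2465 with Pam3CSK4, 2453 with Poly(I:C) and 2582 with CpG. Naive replicate 3 stood apart, with Tnf at 13.44 against 9.0 and 9.53 on the other naive arrays. Against those 2 arrays alone, 132 genes were above with LPS and 31 with Pam3CSK4, and 97 were below with Pam3CSK4. In the type I interferon response list the median difference from the naive mean was 1.29 with LPS and -0.41 with Pam3CSK4, and 1.14 and -0.63 without naive replicate 3. Rsad2 was at 11.04 ± 0.53 (SD, n = 3) in naive cells, between the Pam3CSK4 and the LPS arrays, and Ifnb1 at 3.00 ± 0.11 (SD, n = 3), near its Pam3CSK4 levels.

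Of the 28 genes called lower, 13 were at least 1.5-fold above the naive mean with Pam3CSK4 and 1 with LPS, and 17 were at least 1.5-fold below it with LPS and 4 with Pam3CSK4. Without naive replicate 3 these counts were 15, 4, 13 and 5. For 26 of the 28 the CpG mean lay nearer to the Pam3CSK4 than to the LPS mean, and for 24 of the 28 the Poly(I:C) mean lay nearer to the LPS mean. Over all 13549 genes tested the CpG mean lay nearer to the LPS than to the Pam3CSK4 mean in 4556, and the Poly(I:C) mean did in 8431. Csf2 ranged from 5.01 to 7.12 with CpG, around its Pam3CSK4 levels, and from 2.41 to 3.30 with Poly(I:C), around its LPS levels. Spib had another order, with 6.38 to 7.70 under CpG and 6.46 to 7.59 under Poly(I:C), all above the LPS arrays and below those of Pam3CSK4.

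**Figure D5:**
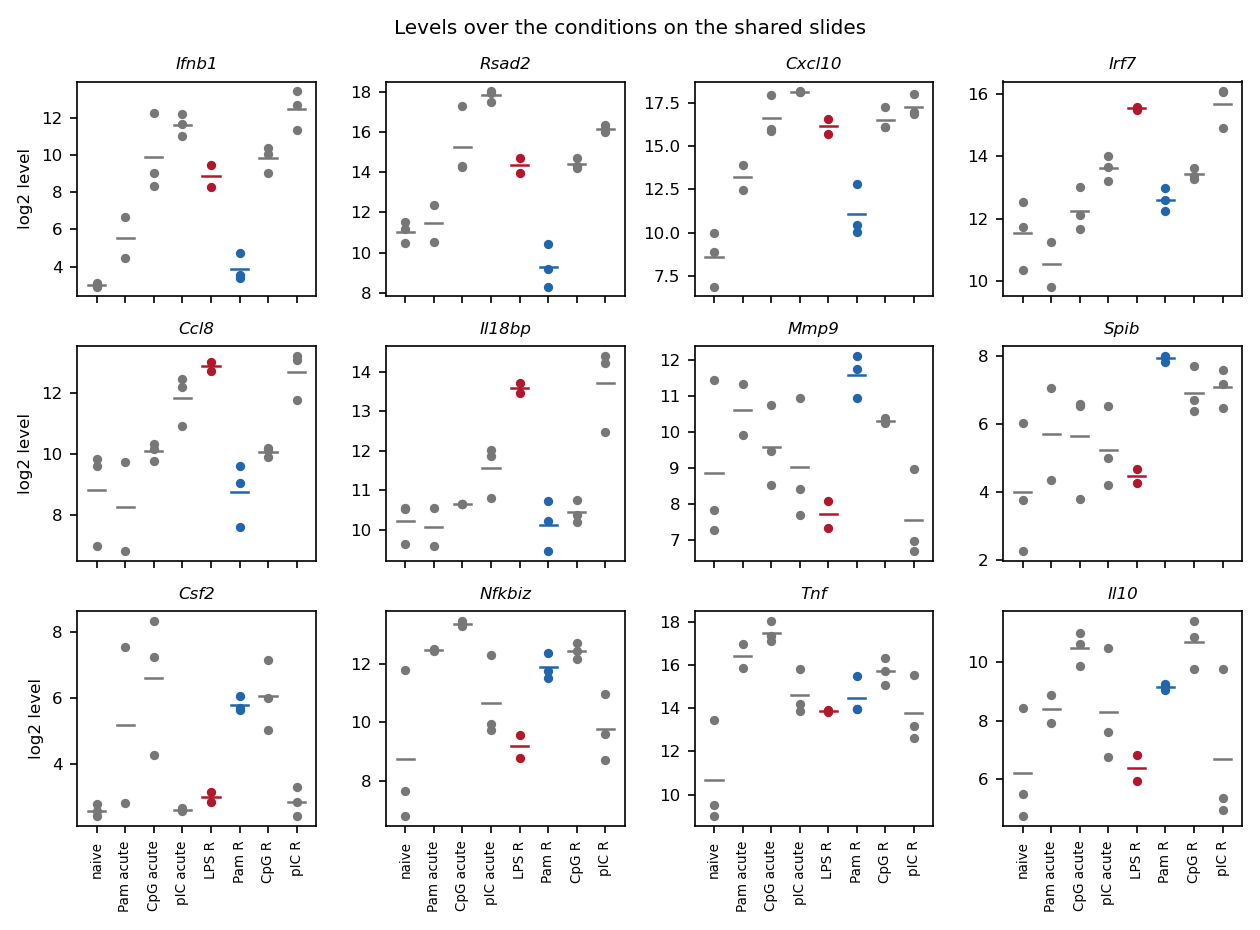
Log2 level on each array (points) and group mean (bars) of 12 genes in naive, acutely stimulated (4 h) and re-stimulated cells (R) for Pam3CSK4 (Pam), CpG, Poly(I:C) (pIC) and LPS. LPS R (red) lies above Pam R (blue) for Ifnb1, Rsad2, Cxcl10, Irf7, Ccl8 and Il18bp and below it for Mmp9, Spib, Csf2, Nfkbiz and Il10, and the acute LPS arrays, read on other slides, are not drawn.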

How the data were processed

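Single-channel mouse arrays were read by the scanner software as spot intensities, which the authors deposited without normalization. The authors also deposited log2 values of 25 of the 27 arrays, for which they corrected the background with the RMA model and then quantile normalized in limma. LPS re-stimulated replicate 3, which failed their quality control, has none. These deposited log2 values were tested as they stand. 0 columns stayed unmatched. Remade values differed from them by a median of 0.0336.

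Probes that the scanner software marked as well above background on 2 or more arrays of LPS or of Pam3CSK4 were tested in R 4.3.3 with limma 3.58.1, in 1 fit of the 11 re-stimulated arrays with Benjamini-Hochberg adjustment, to which every adjusted p refers. The script was checked on simulated data. Lists use the tested probe with the highest mean over the 5 arrays. Named were the 12 genes with the largest called, non-overlapping differences each way, up to 4 called genes a list, and 31 genes fixed by name. Genes named beyond this rule were chosen after their values were seen. Members and lists were chosen with earlier results of these data known. Of the probes tested, 15878 matched a RefSeq transcript. Array positions are mm9 and promoters GRCm38.p6. Alternatives varied background correction, scaling, filter, arrays, slide blocks and the fold threshold. Replicate numbers coincide with slides. The deviations of same-numbered re-stimulated arrays correlated between -0.10 and 0.71, and those of differently numbered arrays between -0.51 and 0.29. With the slide as a random block the fitted correlation was 0.205. The main fit nevertheless has no block, and the slide was used as a block only in alternatives, where the counts differ. The number of arrays limits the precision, and p-values measure the spread between these samples. Acute LPS arrays were not used.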

Additional observations from a re-analysis of the deposited data

Results flagged for a closer look

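The array of LPS re-stimulated replicate 3, which is not in the main fit, carried a signal in the type I interferon response list. It enters only the alternative with all 27 arrays. With all 27 arrays normalized together, the median difference of its 56 genes from the Pam3CSK4 re-stimulated mean was 1.00 on this array and 1.65 on the mean of LPS replicates 1 and 2. Over all probes tested the median was -0.73 on this array and -0.03 on the others. The interferon-inducible GTPases had medians of 1.17 and 2.27, and MHC class I presentation of 0.83 and 0.93. The chemokine receptors had -1.03 and 1.48, and DNA replication and mitosis -2.33 and -0.78. Groups of 2 and 3 arrays are too small for a test of single arrays that stand apart.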

How the results depend on the processing

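None of the called named genes changed sign in the alternatives that gave it a value. Their groups do not overlap, so leaving out an array cannot change a sign, and several other alternatives keep the same group means. The unchanged sign is therefore no support for these calls. Some genes not above background on every array had no value under the stricter filter. Counts were 372 probes (306 higher, 66 lower with LPS) with 240 genes, 76 list probes and 54 named genes. With the array that failed quality control they fell to 19 (16 and 3), 13, 3 and 4. Without a detection filter they were 194 (171 and 23), 119, 46 and 30, with more probes tested. With the 5 compared arrays alone they were 225 (173 higher), 151, 42 and 32. With the 8 groups on shared slides, 118 probes were lower and 48 list probes and 31 named genes were called, and adding a replicate block (chosen after seeing the data) gave 650 probes, 262 of them lower, and 399 genes. With normexp 182 were lower. As a replicate block the slide gave 442 probes (359 higher and 83 lower) and 296 genes in the fit of 11 arrays and 275 probes and 32 named genes in the fit of 5, and as a random block 681 (480 and 201) and 419 genes. When each array was left out in turn, the counts ranged from 21 to 1061 probes (21 to 672 higher and 0 to 389 lower), from 7 to 702 genes, from 1 to 115 list probes and from 1 to 54 named genes. The lowest counts came without LPS replicate 2 and the highest without Poly(I:C) replicate 3. The causes were not tested. Values remade by RMA, median scaling, the processed signal, a stricter filter and spots set aside (the last chosen after seeing the data) kept each count within 1.5 times. The fold threshold removed 0 calls. Levels near background limit the folds of Ifnb1, Csf2, Il12a and Spib.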

Other observations

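Among genes tested by 1 probe each, 19 had differences of at least 3.5 log2 units without overlap between the groups and still did not pass, 8 of them higher and 11 lower with LPS. Several depended on Pam3CSK4 replicate 3. Ly6g, a neutrophil surface protein, stood at 11.67 and 12.77 with LPS and at 8.96, 10.02 and 2.38 with Pam3CSK4 (adjusted p = 0.369). Ly6a (Sca-1) stood at 15.95 and 16.40 against 12.97, 14.03 and 8.04 (adjusted p = 0.346), and Plac8 at 10.43 and 11.02 against 6.71, 7.66 and 3.22 (adjusted p = 0.26). The neutrophil granule genes Ngp and Ltf were at 2.96 and 3.33 on the same array, while the granule genes Elane and Camp were at 11.08 and 10.45. For these genes the lowest level was on slide 3, which holds no LPS array with deposited values.

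On the low side the groups were separated on all 5 arrays for Pim2, a survival kinase, at 7.27 and 5.29 against 11.02, 11.08 and 10.04 (adjusted p = 0.0678), for Itga9, an integrin chain, at 5.97 and 4.06 against 9.57, 9.93 and 9.35 (adjusted p = 0.202), and for Fcrls, an Fc receptor-like scavenger gene, at 9.25 and 8.69 against 12.08, 13.95 and 12.76 (adjusted p = 0.191). Itga9 and Cd209f had adjusted p of 0.0371 and 0.0168 in a fit of the 5 arrays alone. On the Poly(I:C) re-stimulated arrays, which enter the estimate of spread, Itga9 ranged from 2.20 to 9.55 and Fcrls from 7.69 to 12.73.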
